A study of Mus musculus with 24 samples.

Results

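Fam222a, Hs3st6 and Cirbp were followed on 24 arrays of mouse T helper cells treated with the BET bromodomain inhibitor JQ1 or the kinase inhibitor flavopiridol. They were chosen from these data as the non-histone genes with the largest rises after 500 nM JQ1. The choice named no time and is taken below as the 6 hr contrast, where these genes have the 3 largest such rises. For these genes the 6 hr rise is therefore a description and carries no test. They are 3 of the 20028 named genes on the array, and each was measured by 1 probe of the 55681, spotted once per array. The probes were A_52_P251623 for Fam222a (NM_001004180), A_55_P2043062 for Hs3st6 (NM_001012402) and A_51_P272106 for Cirbp (NM_007705). Every probe carrying these symbols was kept, and none of their spots had an outlier flag or was saturated.

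The cells were Th1 (14 arrays) or Th2 (10 arrays), grown in vitro from naive CD4+ T cells of female C57BL/6 mice, and each condition had 1 array with no replicate. Treatments were DMSO as vehicle, 50 or 500 nM JQ1, and 1 or 10 µM flavopiridol, each with 1 unstimulated and 1 reactivated culture per cell type, for 6 hr. A 24 hr time point was added for Th1 cells with DMSO and with 500 nM JQ1. The Th2 DMSO arrays are labelled both 24 hr and 6 hr, so their time was treated as unclear. Each array compared Cy3-labelled RNA of the treated cells with Cy5-labelled RNA of naive CD4+CD62L+CD25-CD44lo T cells, the reference throughout, with the same dye orientation on every array. The 4 combinations of cell type and state (Th1 or Th2, unstimulated or reactivated) are called contexts below, and they stood in for replicates. P-values therefore measure how much an effect varied between contexts, not between animals or cultures of 1 condition. In limma the variance of a gene is also drawn toward that of all genes tested, most where residual degrees of freedom are few.

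BET proteins bind acetylated histones and help to bring the elongation kinase P-TEFb to genes, and JQ1 displaces them from chromatin. Flavopiridol inhibits the kinase subunit of P-TEFb and so blocks the release of paused RNA polymerase II. Cirbp encodes the cold-inducible RNA-binding protein, which is induced by mild cold and binds mRNAs, including those of clock genes. Hs3st6 encodes a heparan sulfate 3-O-sulfotransferase, an enzyme of the late steps of heparan sulfate modification in the Golgi. Fam222a encodes aggregatin, a little studied protein described mainly in brain.

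The promoter windows are shown for context, since the genes were chosen by their rise with JQ1 and no feature common to them was tested. RefSeq promoters of build GRCm38.p6 were given for Fam222a and Cirbp, each as the 250 bases before the annotated start on the plus strand. Capitals mark matches, on either strand, to the TATA box TATAAA, the CCAAT box, the GC box GGGCGG, the E-box CACGTG, or TCCCCGCC, an octamer described as a mild-cold-responsive element of Cirbp.
Fam222a, chr5:114568001-114568250: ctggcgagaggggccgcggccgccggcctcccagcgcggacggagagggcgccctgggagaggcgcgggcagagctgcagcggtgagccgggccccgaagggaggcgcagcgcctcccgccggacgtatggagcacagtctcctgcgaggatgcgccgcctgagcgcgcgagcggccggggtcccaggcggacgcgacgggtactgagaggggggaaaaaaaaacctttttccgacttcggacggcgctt
Cirbp, chr10:80167589-80167838: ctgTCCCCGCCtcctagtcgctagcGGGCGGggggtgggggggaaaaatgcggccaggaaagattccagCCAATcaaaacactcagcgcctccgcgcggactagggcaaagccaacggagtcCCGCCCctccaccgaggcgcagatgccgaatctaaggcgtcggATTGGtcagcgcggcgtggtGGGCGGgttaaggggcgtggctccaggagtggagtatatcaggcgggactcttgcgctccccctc
The Fam222a window held none of the 5 motifs and was 73.2% G and C, against a median of 52.4% over 32851 promoter windows of the same length. The Cirbp window was 65.6% G and C and held 3 matches to GGGCGG, 2 to CCAAT and 1 to TCCCCGCC, none of them overlapping. Over all windows, GGGCGG was found in 32.7%, CCAAT in 33.8%, TCCCCGCC in 4.64%, TATAAA in 12.4% and CACGTG in 6.02%. A 2nd Cirbp entry, chr10:80167921-80168170, held 4 matches to GGGCGG and none to the other motifs.

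The arrays lay on 3 slides. All 6 hr DMSO and JQ1 arrays of Th1 cells shared a slide with the Th2 DMSO arrays, and the 24 hr Th1 arrays shared another, so JQ1 in Th1 cells was compared within slides. Th2 cells with JQ1, and all flavopiridol arrays, were on other slides than their DMSO controls. In the Cy3 channel 48.8% to 52% of probes were well above background (a call of the scanner software) with DMSO, 43.8% to 50.5% with 500 nM JQ1 and 35.5% to 41.5% with flavopiridol, against 48.1% to 53.8% in the Cy5 channel of all arrays. Summed Th1 markers were higher on the Th1 than on the Th2 DMSO arrays (15.06 to 19.43 against 11.14 to 13.23, log2 of summed Cy3), and all 6 T cell markers were above background on all 24 arrays. Summed Th2 markers overlapped (10.83 to 13.29 on Th1 and 12.94 to 15.19 on Th2 DMSO arrays). The summed B cell markers were at 11.82 to 12.23 on Th2 and 10.15 to 10.54 on Th1 DMSO arrays, 9.25 to 11.21 with 500 nM JQ1 and 9 to 10.58 with flavopiridol. The part of these B cell markers in the results was not tested. In bulk RNA such as this, fewer cells of a type and less RNA per cell cannot be told apart.

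Fam222a was dim in DMSO and bright with JQ1. Its raw Cy3 signal with DMSO was 94 in unstimulated and 70 in reactivated Th1 cells at 6 hr, 65 and 78 at 24 hr, and 143 and 102 in Th2 cells, where the local background was near 20. With 500 nM JQ1 it was 599 and 461 in Th1 cells at 6 hr, 525 and 441 at 24 hr, and 744 and 657 in Th2 cells. Every 500 nM JQ1 array was thus above every DMSO array, and the 50 nM arrays (262 and 169 in Th1, 328 and 206.5 in Th2 cells) lay between them. As a log2 ratio to naive cells, Fam222a was -1.20 to -0.63 with DMSO, -0.20 to 0.62 with 50 nM and 1.33 to 1.81 with 500 nM JQ1, and it passed from below to above the naive reference, whose raw signal of 357 to 474 was well above background on all arrays.

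Hs3st6 was also near the lower end of the scale. With DMSO its raw Cy3 signal was 115 in unstimulated and 52 in reactivated Th1 cells at 6 hr, 60 and 52 at 24 hr, and 90 and 73 in Th2 cells. With 500 nM JQ1 it was 705 and 292 in Th1 cells at 6 hr, 316 and 178.5 at 24 hr, and 895 and 533 in Th2 cells, again all above the DMSO arrays. The 50 nM arrays (215 and 103 in Th1, 227 and 164 in Th2 cells) overlapped with DMSO, since reactivated Th1 cells with 50 nM were below unstimulated Th1 cells with DMSO. Its naive reference signal was only 60 to 122 and well above background on 16 of 24 arrays, so its log2 ratios (0.50 to 1.39 with DMSO and 2.11 to 3.80 with 500 nM JQ1) rest on a dim denominator.

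Cirbp was abundant throughout, above background on all 24 arrays in both channels. Its raw Cy3 signal with DMSO was 2187 in unstimulated and 1363.5 in reactivated Th1 cells at 6 hr, 2101 and 1625.5 at 24 hr, and 3363 and 2093 in Th2 cells. With 500 nM JQ1 it was 6875 and 4175 in Th1 cells at 6 hr, 4770 and 4020 at 24 hr, and 8512 and 9849.5 in Th2 cells. The 50 nM arrays (3329 and 2688 in Th1, 4726 and 3789 in Th2 cells) overlapped with the DMSO array of unstimulated Th2 cells. As a log2 ratio after loess Cirbp was below naive cells on all DMSO arrays (-1.82 to -0.56) and above them on all 500 nM JQ1 arrays (0.22 to 1.35). The sign against naive cells depends on the scaling. In reactivated Th1 cells with 500 nM JQ1 at 6 hr the ratio was 0.64, where the spike-in probes averaged 0.90 after loess.

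**Figure D1:**
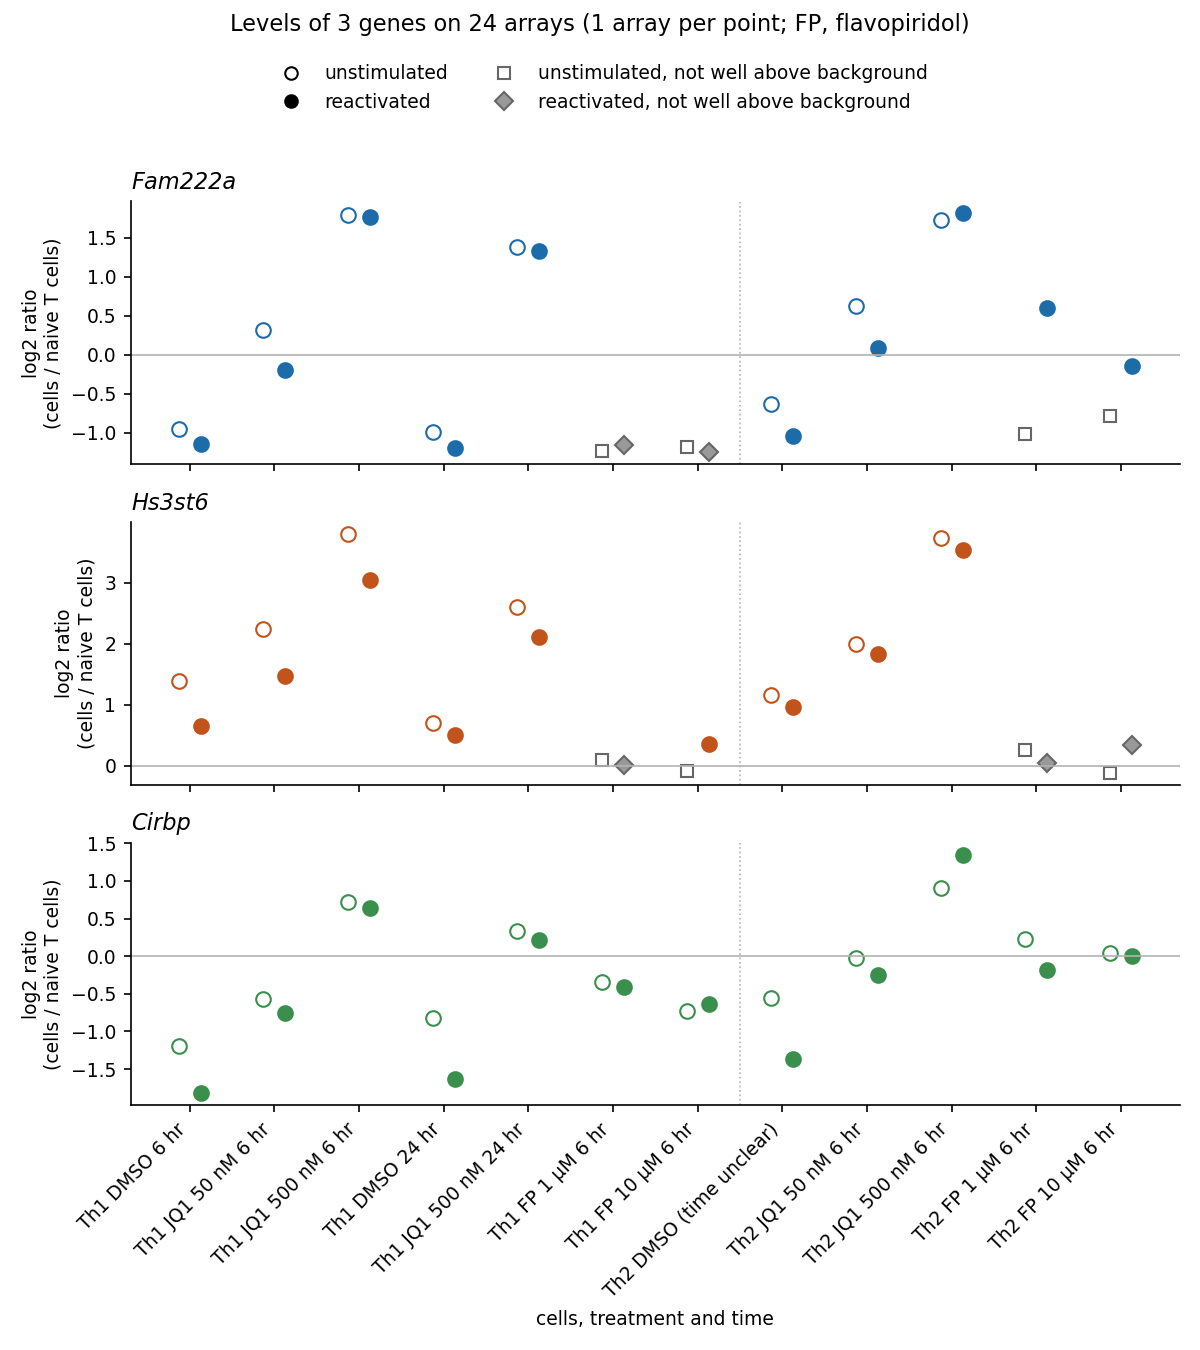
The log2 ratio of treated cells over naive T cells (vertical axis) for Fam222a, Hs3st6 and Cirbp under 12 combinations of cells, treatment and time, with 1 array per point, open for unstimulated and filled for reactivated cells. Squares and diamonds mark arrays where the gene was not well above background. The 4 arrays with 500 nM JQ1 at 6 hr stand highest for all 3 genes, at 1.73 to 1.81 for Fam222a.

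Array to array variation was taken from the reference channel, which carried the same kind of naive RNA on every array. Between 2 arrays the normalized Cy5 signals differed with an SD (median of 276 pairs) of 0.23 (log2) for probes as bright as Fam222a, 0.16 for those as bright as Hs3st6 and 0.15 for those as bright as Cirbp. This SD is technical and covers the Cy5 channel alone. It leaves out noise of the Cy3 channel and the variation between cultures, which these arrays do not measure. The levels are ratios of both channels, so counts of gaps beyond this SD may be too high. The normalized Cy5 signal of Hs3st6 itself ranged over 0.68 (log2) across the arrays. When the 24 levels of a gene were put in order, 5 of 23 gaps between neighbours were wider than that SD for Fam222a, 9 for Hs3st6 and 9 for Cirbp. The 4 highest Fam222a levels were the 6 hr arrays with 500 nM JQ1 (1.73 to 1.81), with gaps between neighbours under that technical SD, and the pair at 24 hr came next at 1.38 and 1.33. The lowest 10 of its levels (-1.25 to -0.96) were DMSO and flavopiridol arrays, again with gaps under the SD. For Hs3st6 the 4 arrays with 500 nM JQ1 at 6 hr were also highest, while unstimulated Th1 cells with 50 nM (2.25) stood above reactivated Th1 cells with 500 nM at 24 hr (2.11), and the lowest 8 (-0.11 to 0.36) were the 8 flavopiridol arrays. For Cirbp the highest level was in reactivated Th2 cells with 500 nM JQ1 (1.35) and the lowest in reactivated Th1 cells with DMSO at 6 hr (-1.82), and the flavopiridol arrays stood at -0.73 to 0.23.

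After 500 nM JQ1 for 6 hr, the contrast that chose the genes, Fam222a was higher than with DMSO in 4 of 4 contexts by 2.72 ± 0.12 (log2, mean and SE of the limma fit), or 6.59-fold. Hs3st6 was higher by 2.48 ± 0.07, or 5.58-fold, and Cirbp by 2.14 ± 0.16, or 4.41-fold. The rise of Hs3st6 was nearly the same in each context (2.38 to 2.57), that of Fam222a ran from 2.36 to 2.91, and that of Cirbp was smallest in unstimulated Th2 cells (1.47) and largest in reactivated Th2 cells (2.71). Among all genes they ranked 2, 3 and 5. Of the histone genes, H2bc4 (2.95) stood above them, H1f2 (2.43) between Hs3st6 and Cirbp, and H2aw (2.10) just below Cirbp. Just outside the choice stood Sat1 at 2.04, which encodes a polyamine acetyltransferase, Tob1 at 2.02, an antiproliferative protein, and Tubb3 at 1.90, a tubulin. In this contrast 47.6% of 12911 genes tested were called at an adjusted p under 0.05 (limma, Benjamini-Hochberg), 17.7% as higher and 29.9% as lower. These shares hold for loess only, since with spike-in centring 112 genes were called higher and 5272 lower. Within the Th1 contexts, which shared a slide with their controls, the rises were 2.83, 2.40 and 2.19 for Fam222a, Hs3st6 and Cirbp.

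The lower dose gave a smaller rise in each gene and each context. With 50 nM JQ1 Fam222a was higher than with DMSO by 1.15 ± 0.12, Hs3st6 by 0.85 ± 0.07 and Cirbp by 0.83 ± 0.16, each in 4 of 4 contexts. These values share their DMSO arrays with the contrast that chose the genes and were not tested. For scale, 0.256% of 12911 genes were called higher at this dose. The lower dose reached 32.3% to 53.0% of the 500 nM rise of Fam222a (log2), 32.7% to 35.7% of that of Hs3st6 and 33.0% to 43.9% of that of Cirbp. Between the doses, which lay on the same slide for each context, the step from 50 to 500 nM was 1.57 for Fam222a, 1.64 for Hs3st6 and 1.31 for Cirbp, and it was positive in 4 of 4 contexts for each. The 500 nM arrays chose the genes, which favours a positive step, so it is a description only.

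**Figure D2:**
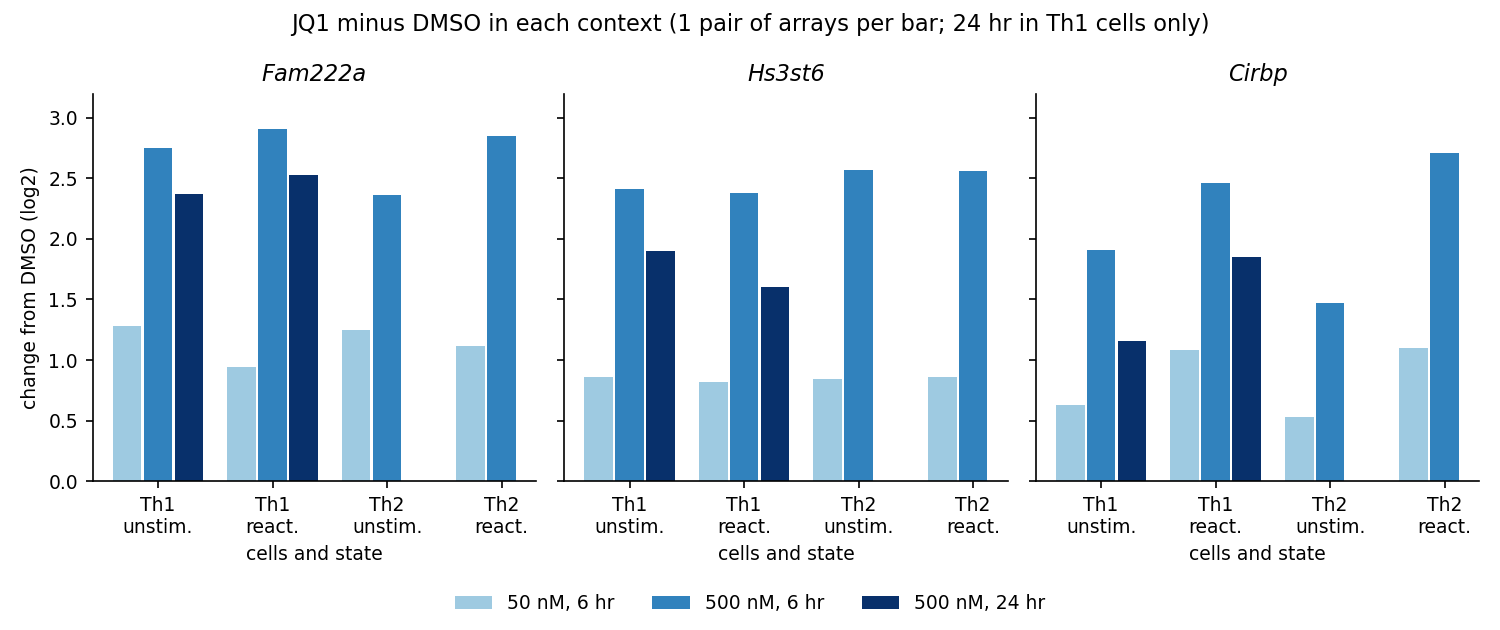
Change from DMSO (log2, vertical axis, from 0) of Fam222a, Hs3st6 and Cirbp in each context, with 50 nM JQ1 at 6 hr, 500 nM JQ1 at 6 hr and 500 nM JQ1 at 24 hr (Th1 cells only). Each bar is 1 pair of arrays, and every bar is above 0, from 0.53 for Cirbp with 50 nM JQ1 to 2.91 for Fam222a with 500 nM.

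At 24 hr, on arrays outside the 6 hr contrast, all 3 genes rose with 500 nM JQ1 in Th1 cells. The choice of the genes named no time, so these tests may not be independent of it. Fam222a rose by 2.45 ± 0.15 (5.46-fold, limma adjusted p = 0.016), Hs3st6 by 1.75 ± 0.16 (3.36-fold, adjusted p = 0.02) and Cirbp by 1.50 ± 0.21 (2.83-fold, adjusted p = 0.0267). Here 9.96% of 11865 genes tested were called, 3.92% as higher and 6.04% as lower. The rise was seen in both states, with 2.37 in unstimulated and 2.53 in reactivated cells for Fam222a, 1.90 and 1.60 for Hs3st6, and 1.16 and 1.85 for Cirbp. The fit had 4 arrays and 1 residual degree of freedom, so its errors rest largely on the variance of all genes tested. With the scanner software's own log ratio the values were 3.25, 2.23 and 1.50, and the calls were lost (adjusted p = 0.0688, 0.0688 and 0.0818).

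Set beside the 6 hr arrays of Th1 cells, the levels under 500 nM JQ1 were lower at 24 hr, by 0.42 for Fam222a, 1.06 for Hs3st6 and 0.41 for Cirbp as means of both states. The DMSO level moved by -0.04, -0.42 and 0.29 over the same interval. For Hs3st6 the DMSO change was -0.68 in unstimulated and -0.15 in reactivated cells, the latter under the technical SD between arrays, and the DMSO level of Fam222a moved by less than that SD. These differences were not tested, the choice of the genes on the 6 hr arrays favours a lower level at 24 hr, and the 6 hr and 24 hr arrays were on different slides.

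Cirbp fell with reactivation in vehicle-treated cells. With DMSO it was lower in reactivated than in unstimulated cells by 0.63 in Th1 cells at 6 hr, 0.80 at 24 hr and 0.79 in Th2 cells, a mean change of -0.74 ± 0.12 (limma adjusted p = 0.00342, lower in 3 of 3 pairs). Of the 6 arrays in this fit, 4 were also controls of the contrast that chose the genes, so the test is not independent of that choice. Reactivation was a broad change, with 50.9% of 12530 genes called and 29% as lower. Hs3st6 changed by -0.38 ± 0.15 (adjusted p = 0.0851) and Fam222a by -0.27 ± 0.13 (adjusted p = 0.12), lower in 3 of 3 pairs each and past no threshold, and when the spike-in shift was added to loess they were -0.09 and 0.02. When each array was centred on its spike-in probes, Cirbp changed by -0.43 and its call was lost (adjusted p = 0.0688).

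Under 500 nM JQ1, reactivated minus unstimulated was -0.08 in Th1 cells at 6 hr, -0.11 at 24 hr and 0.44 in Th2 cells for Cirbp. The effect of 500 nM JQ1 at 6 hr was larger in reactivated cells (2.46 in Th1 and 2.71 in Th2) than in unstimulated cells (1.91 and 1.47), a difference of 0.89 ± 0.18 (limma adjusted p = 0.0148). It comes from the same 6 hr arrays that chose the genes by their mean rise over the contexts, so it is not independent of that choice. In this contrast 10.1% of 12911 genes were called, 4.5% as higher in reactivated cells. The pair of effects at 24 hr, 1.85 and 1.16, ran the same way on other arrays, with no test of that difference. The call depended on the processing. It was lost with median centring (0.57, adjusted p = 0.189), and the sign turned with spike-in centring (-0.30), a scaling that moved the median of all genes in this contrast to -1.03. Relative to that median the Cirbp difference was 0.73, against 0.90 as analysed. Leaving out 1 array at a time gave 0.70 to 1.09, and the call was lost without either Th2 DMSO array (adjusted p = 0.0785 unstimulated, 0.0735 reactivated) or unstimulated Th2 cells with 500 nM JQ1 (0.0533).

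For the other genes the JQ1 effect was not found to differ by state. The difference was 0.32 ± 0.17 for Fam222a (adjusted p = 0.267) and -0.02 ± 0.14 for Hs3st6 (adjusted p = 0.949), and under both spike-in scalings it was negative for both. It was then past the threshold for Hs3st6 under both (-1.09 with spike-in centring, adjusted p = 0.00724, where the median gene was at -1.03) and for Fam222a under the shift added to loess (-0.87, adjusted p = 0.0492, where the median gene was at -1.21). For Hs3st6 reactivated minus unstimulated was -0.73 with DMSO, -0.77 with 50 nM and -0.76 with 500 nM JQ1 in Th1 cells at 6 hr, and -0.19, -0.17 and -0.21 in Th2 cells. In Th1 cells at 24 hr it was -0.21 with DMSO and -0.51 with 500 nM.

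**Figure D3:**
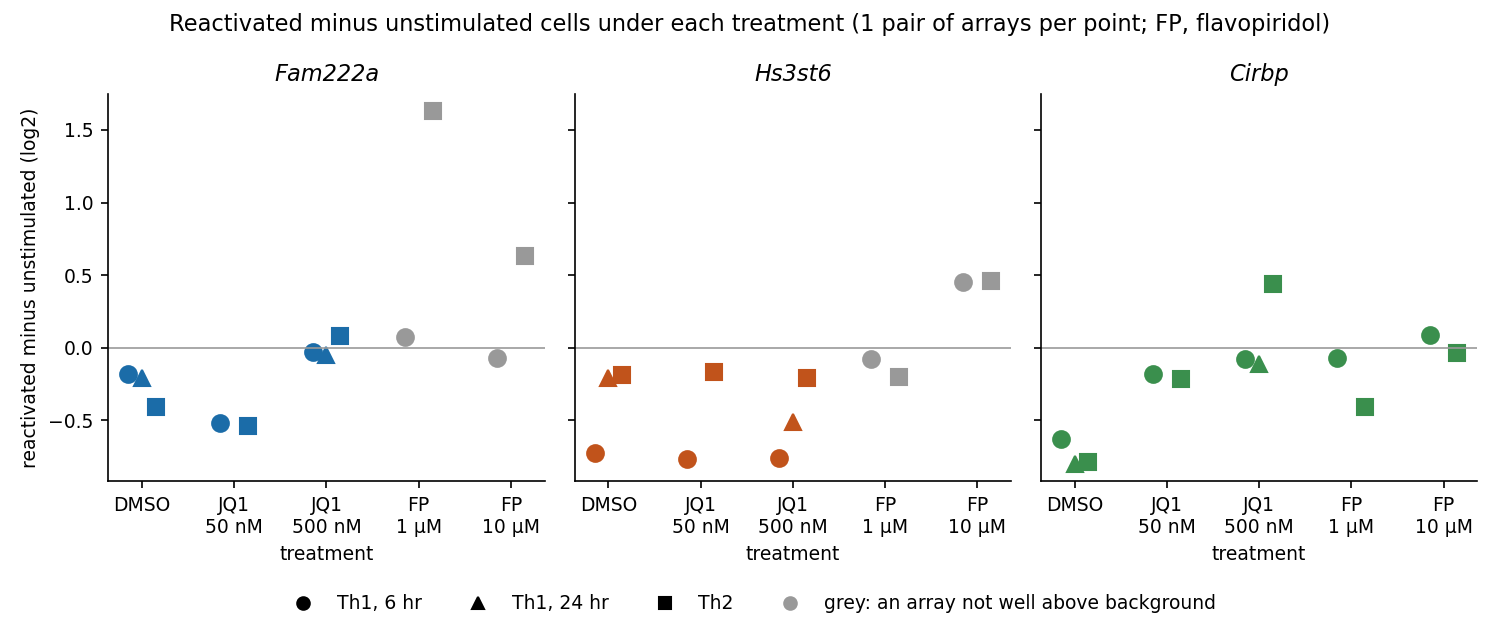
Reactivated minus unstimulated cells (log2, vertical axis) under each treatment for Fam222a, Hs3st6 and Cirbp, with circles for Th1 cells at 6 hr, triangles for Th1 cells at 24 hr and squares for Th2 cells, 1 pair of arrays per point. Grey points include an array not well above background. The 3 DMSO points of Cirbp lie at -0.80 to -0.63 and its 500 nM JQ1 points at -0.11 to 0.44.

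Between Th1 and Th2 cells the JQ1 effect was not found to differ for any of the 3 genes. The difference, Th1 minus Th2, was 0.22 ± 0.25 for Fam222a (limma adjusted p = 0.955), -0.17 ± 0.14 for Hs3st6 (0.917) and 0.10 ± 0.37 for Cirbp (0.989), errors that leave room for differences of either sign. In limma's fit 0 of 12911 genes were called in this contrast (0%), and 907 had an unadjusted p under 0.05. Slide and cell type cannot be told apart in it, because the Th2 arrays with JQ1 shared a slide with Th1 flavopiridol arrays and with no DMSO or Th1 JQ1 array. These tests too use the 6 hr arrays that chose the genes. The log2 ratio of Cirbp was lower in Th1 than in Th2 cells in all 10 matched pairs of treatment and state, by 0.19 to 0.77, including the DMSO pairs on the same slide (0.63 unstimulated and 0.47 reactivated). Those pairs use Th1 arrays at 6 hr and Th2 arrays of unclear time (-0.56 and -1.36). The 24 hr Th1 DMSO arrays, on another slide, were nearer to the Th2 arrays (-0.82 and -1.63). The difference between the cell types was not tested. The raw signal ran the other way with 1 µM flavopiridol (3064.5 and 2600 in Th1, 2260 and 1707 in Th2 cells) and in reactivated cells with 10 µM (1972 in Th1 and 1841 in Th2).

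With flavopiridol Hs3st6 was near background, Fam222a was near background outside reactivated Th2 cells, and Cirbp stayed bright. Hs3st6 had raw Cy3 signals of 29.5 and 27.5 in Th1 and 29 and 26 in Th2 cells with 1 µM, and 24.5 and 44 in Th1 and 21 and 33 in Th2 cells with 10 µM (unstimulated, then reactivated). It was well above background on 1 of these 8 arrays, that of reactivated Th1 cells with 10 µM, against all DMSO and JQ1 arrays. Where it was dim, DMSO was at least 1.31-fold to 2.43-fold higher, from the DMSO level against the higher of the array's detection floor and the dim signal. The background correction adds 50 units to each signal, which shrinks folds of such dim probes.

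Fam222a was not well above background on 6 of 8 flavopiridol arrays, with raw signals of 20.5 to 33 on them. There DMSO stood 1.01-fold to 1.38-fold above the dim signal, which was itself above the detection floor on each of these arrays. The smaller of these differences (from 0.02, log2) lie within the technical SD of 0.23, so they give no sure direction. Reactivated Th2 cells were the exception, at 108 with 1 µM and 57.5 with 10 µM, against 102 with DMSO. As a log2 ratio these 2 arrays were 0.60 and -0.15 against -1.04 with DMSO, and each is 1 array on another slide than its control. The raw signals do not show that rise, which rests on the scaling. After loess the spike-in probes averaged 0.81 and 0.95 on these arrays and -0.83 on the control (log2 ratio). With 10 µM flavopiridol no mean change is given for Fam222a or Hs3st6, since 3 of the 4 arrays give only a bound for each.

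The raw Cirbp signal with flavopiridol was 1598 to 3064.5 over 8 arrays, a range that overlaps with DMSO (1363.5 to 3363). As log2 ratios to naive cells it was higher than DMSO by 1.06 with 1 µM (0.80 to 1.42, 4 of 4 contexts) and by 0.90 ± 0.17 with 10 µM (0.46 to 1.36, 4 of 4). The direction rests on the scaling. With loess the median gene of 12432 changed by -0.22 with 10 µM, with median centring by -1.05 and with spike-in centring by -1.65, and Cirbp then changed by -0.02 and -0.62. Relative to the median gene Cirbp was higher by 1.03 to 1.12 under the 4 scalings. These values share the DMSO arrays that chose the genes and were not tested.

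Between the doses of flavopiridol, on arrays with no part in the choice, Cirbp changed by -0.16 ± 0.11 from 1 to 10 µM (limma adjusted p = 0.342, lower in 3 of 4 contexts). With spike-in centring it changed by -0.45 and was called (adjusted p = 0.0384). In that fit 18.6% of 10920 genes were called. Fam222a and Hs3st6 were above background on too few of the 8 arrays (2 and 1) to be tested. Beside the 500 nM JQ1 change of 2.14 for Cirbp under the same loess scaling, the 10 µM flavopiridol change of 0.90 used the same control arrays, so the 2 values are given side by side only.

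**Figure D4:**
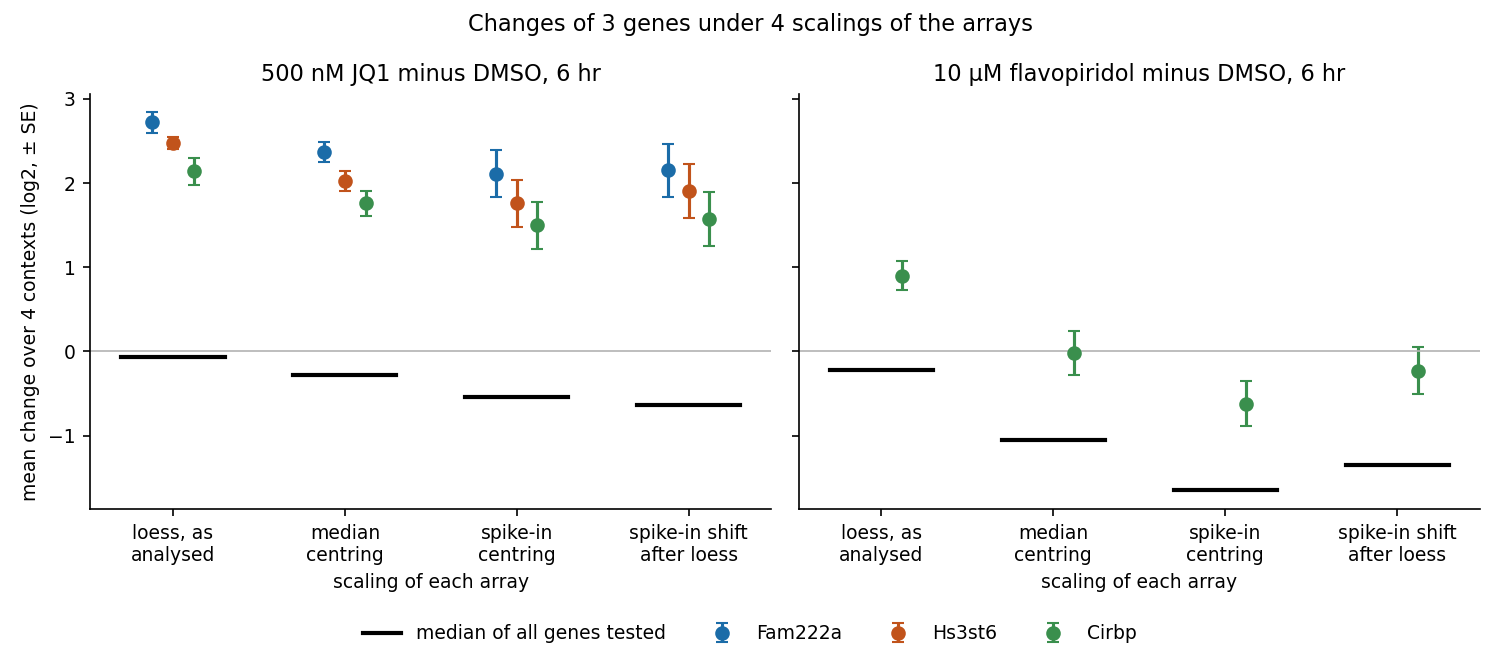
Mean change from DMSO over 4 contexts at 6 hr (log2, ± SE of the limma fit) of Fam222a, Hs3st6 and Cirbp with 500 nM JQ1 (left) and of Cirbp with 10 µM flavopiridol (right, where the other two have only bounds) under 4 scalings of the arrays, with black lines for the median of all genes tested. With JQ1 no value is below 1.50, and with flavopiridol Cirbp goes from 0.90 with loess to -0.62 with spike-in centring while the median gene goes from -0.22 to -1.65.

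The relatives of the 3 genes did not move as a block with JQ1. Of 28 listed genes of heparan sulfate synthesis and modification, 20 were tested at 500 nM, and 5 rose and 9 fell, beside 17.7% higher and 29.9% lower over all genes, with a median change of -0.17 against -0.07. With spike-in centring 9 of the 20 were called in place of 14, beside 112 higher and 5272 lower of all 12911 genes under that scaling. Ndst2 fell by 1.36 ± 0.09 and Ndst1 by 1.05 ± 0.16, both N-deacetylase/N-sulfotransferases, and Extl2, a glycosyltransferase, fell by 0.94 ± 0.08. Glce, the glucuronyl C5-epimerase, rose by 1.05 ± 0.09. At 24 hr Ndst2 (-1.06, limma adjusted p = 0.0265) and Glce (0.97, adjusted p = 0.0401) were the 2 of 15 that were called, beside 9.96% over all genes.

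Among 10 tested genes of cold-shock and cold-inducible RNA binding, 3 rose, 3 fell and 4 were not called with 500 nM JQ1, where 47.6% of all genes were called. Under either spike-in scaling 3 of the 10 were called. Of all 12911 genes, 112 were then higher and 5272 lower with spike-in centring, and 88 and 4929 with the spike-in shift. Clk1, a kinase of splicing factors, rose by 0.72 ± 0.12 and Carhsp1, a cold-shock domain protein, by 0.53 ± 0.11, while Rbmxl1, an RNA-binding protein, fell by 0.44 ± 0.11. Rbm3, the closest cold-inducible relative of Cirbp, changed by 0.19 ± 0.10 (limma adjusted p = 0.146), beside 2.14 for Cirbp. Of 16 circadian clock genes tested, 5 rose and none fell, beside the 17.7% and 29.9% over all genes: Hlf by 1.20 ± 0.13, Cry2 by 1.02 ± 0.08, Arntl by 0.82 ± 0.10, Dbp by 0.58 ± 0.17 and Nfil3 by 0.36 ± 0.09, and the median of the list was 0.02. Cry2 (0.98) and Arntl (0.75) were the 2 of 13 called at 24 hr, beside 9.96% over all genes. Fam222b, the paralog of Fam222a, changed by -0.02 ± 0.10.

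The genes next to the 3 on the chromosome rose less or were not called. By the gene order of RefSeq, 12 neighbours were taken, 2 on each side, and of 10 tested 5 rose with 500 nM JQ1 and none fell (17.7% and 29.9% over all genes), with a median of 0.28 against -0.07 over all genes. Midn, beside Cirbp, rose by 0.81 ± 0.28 and Fam174c, on its other side, by 0.61 ± 0.13. Hagh (0.56) and Msrb1 (0.36) beside Hs3st6 and Mvk (0.48) beside Fam222a were also called, while Trpv4, Mmab and Gltp around Fam222a and Atp5d and Efna2 around Cirbp, at -0.14 to 0.20, were not. These calls did not hold under other scalings, with 2 of the 10 called under median centring, 1 under spike-in centring and 0 under the spike-in shift. Of 12911 genes, 736 were then called higher and 5818 lower under median centring. The counts were 112 and 5272 under spike-in centring and 88 and 4929 under the shift. With the Th1 contexts alone 3 neighbours were called, and the share over all genes was not recorded there. At 24 hr limma called 0 of 10, beside 9.96% over all genes, and 3 had an unadjusted p under 0.05.

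Over the 24 arrays and 11814 genes, the pattern most like Fam222a was that of the histone gene H2bc4 (Pearson r = 0.93), then Slc30a2, a zinc transporter (0.927), and Gadd45a, a stress-response gene (0.919). For Hs3st6 it was Magi3, a scaffold protein (0.961), H2bc4 (0.958) and Tmem86a (0.957). For Cirbp, likeness was lower, with Camkk1, a calcium/calmodulin-dependent kinase kinase (0.872), Arhgap29 (0.865) and the ribosomal protein gene Rps2 (0.856). Among themselves, Fam222a and Hs3st6 had r = 0.873 and Cirbp had r = 0.795 with Fam222a and 0.617 with Hs3st6. These correlations are descriptions over 24 conditions that share the reference and, in part, the slide, and 500 nM JQ1 arrays, which chose the genes, weigh in each of them.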

How the data were processed

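The deposited scanner files held, per the file headers, the median intensity of each spot and its local background in both channels, from Agilent Feature Extraction 10.7.1.1 with a grid of build mm9. They also held the software's log10 ratio, and the authors deposited a table of log2 ratios for 34710 probes, whose normalization was not given in the sources used here and which followed the values computed here with r of 0.981 to 0.996. Background correction was by normexp with an offset of 50, and loess normalization within arrays gave control and flagged spots a weight of 0 (limma 3.58.1, R 4.3.3). Ratios were turned to log2 of Cy3 (cells) over Cy5 (naive). Repeated probes were averaged and a gene was represented by its brightest probe. Genes whose Cy3 signal passed the software's background call on 3 or more arrays of a fit entered limma's lmFit and eBayes with context (or pair, or state) as a block, and p-values were adjusted by Benjamini-Hochberg over all genes tested. The scripts were tested on simulated data.

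The 3 genes, the gene lists and the tests were chosen with earlier results of these data known. The text names the 3 genes, the next 3 non-histone genes in the 500 nM JQ1 contrast, the 3 genes most like each over 24 arrays, 2 neighbours on each side, and at most 4 called genes of each list by size of change; Nfil3, Rbm3 and Fam222b were named beyond that rule. A called list gene that the rule names is not reported here. The marker lists were of Th1, Th2, T, CD8 T, B, myeloid and NK cells. Summed CD8 markers were 7.45 to 8.86 with DMSO and 7.21 to 8.02 with 500 nM JQ1, myeloid markers 13.51 to 14.23 and 13.40 to 14.02, and NK markers 8.13 to 10.64 and 8.13 to 10.89 (log2 of summed Cy3). With flavopiridol they were 8.1 to 9.34 (CD8), 12.18 to 13.74 (myeloid) and 8.39 to 8.91 (NK). Gene names came from a RefSeq table of GRCm38.p6, whose gene positions were used only to order the neighbours. Symbols of the Gm, LOC, Rik and Mir type, among others, were passed over as neighbours. Array number limits the precision. An alternative with mean spot signals was not run, because the columns used held medians.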

Additional observations from a re-analysis of the deposited data

Results flagged for a closer look

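The effect of 500 nM JQ1 on Cirbp differed between reactivated and unstimulated cells by 0.89 ± 0.18 (log2, limma adjusted p = 0.0148), a test of the difference itself on the arrays that also chose the gene. The difference had the same sign in Th1 cells (2.46 against 1.91) and Th2 cells (2.71 against 1.47), and in Th1 cells at 24 hr on other arrays (1.85 against 1.16). Under both spike-in scalings it was -0.30, where the median of all genes was -1.03 and -1.21. The call was lost with median centring (adjusted p = 0.189), with the software's log ratio (0.0521), in a fit of 8 arrays (0.0774) and without any 1 of 3 arrays (0.0533 to 0.0785).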

How the results depend on the processing

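Arrays were paired by context in the fits themselves, and the labels number no replicates. The rises of the 3 genes kept their direction under all alternatives at 500 nM JQ1 (6 and 24 hr) and 50 nM JQ1. At 6 hr with 500 nM, Fam222a changed by 2.37 with median centring, 2.11 with spike-in centring, 2.15 with a spike-in shift after loess, 2.98 without background correction and 3.48 with the software's log ratio. Hs3st6 changed by 2.02, 1.76, 1.91, 2.63 and 2.25 under the same settings and by 2.79 in the authors' table, and Cirbp by 1.50 with spike-in centring and 1.57 with the spike-in shift. With 50 nM, Hs3st6 changed by 0.68 with median centring, 0.74 with spike-in centring, 0.96 without background correction and 0.90 in the authors' table, and from 0.83 to 0.87 when 1 array was left out. Fam222a changed by 0.98 in the Cy3 channel alone, 1.32 without background correction and 1.61 with the software's log ratio. With that log ratio the 24 hr values were 3.25, 2.23 and 1.50 for Fam222a, Hs3st6 and Cirbp, and no call held (adjusted p of 0.0688, 0.0688 and 0.0818). Left out in turn, the 24 hr arrays gave 2.37 to 2.53, 1.60 to 1.90 and 1.16 to 1.85, with no residual degrees of freedom for a test. Calls among heparan sulfate genes fell from 14 to 9 with spike-in centring, among cold-shock genes from 6 to 3 with either spike-in scaling, and among neighbours from 5 to 2 with median centring, 1 with spike-in centring, 0 with the spike-in shift and 3 with Th1 contexts alone. Over all genes tested at 500 nM, 112 were called higher and 5272 lower with spike-in centring, against 2282 and 3862 as analysed. The counts were 736 and 5818 with median centring and 88 and 4929 with the spike-in shift.

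The reactivation change of Cirbp with DMSO was -0.43 with spike-in centring (limma adjusted p = 0.0688), and that of Fam222a turned to 0.02 with the spike-in shift. For the JQ1 effect by state, Cirbp was 0.57 with median centring (adjusted p = 0.189), -0.30 with either spike-in scaling, 0.92 with the software's log ratio (0.0521) and 0.89 in a fit of 8 arrays (0.0774), and its adjusted p ran from 0.0106 to 0.488 over the alternatives. Fam222a was -0.72 with spike-in centring (0.0608) and -0.87 with the spike-in shift (0.0492, past the threshold). Hs3st6 was -1.09 and -1.22 under those, both past the threshold, and 0.22 without background correction and 0.83 with the software's log ratio. Leaving out 1 array gave 0.70 to 1.09 for Cirbp and -0.10 to 0.06 for Hs3st6. For the JQ1 effect by cell type, Cirbp was -0.10 with median centring and -0.05 with either spike-in scaling, Hs3st6 0.02 without background correction and 0.58 with the software's log ratio. Leaving out 1 array gave -0.38 to 0.57 for Cirbp and -0.05 to 0.50 for Fam222a. With 10 µM flavopiridol, Cirbp was -0.02, -0.62 and -0.23 with median centring, spike-in centring and the spike-in shift. From 1 to 10 µM, Cirbp changed by -0.45 with spike-in centring and was then called (adjusted p = 0.0384). The cause of these shifts was not tested. The slide as a random block changed no call, and in the cell type contrast it was already part of the design. Signals near background limit Fam222a and Hs3st6 with flavopiridol, where most arrays give only a bound and no mean is given (the fitted sign for Fam222a also turned with the scaling), and Hs3st6 in naive cells.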
